A study of Mus musculus with 12 samples.

Results

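The 26 genes described here encode receptors for serotonin, dopamine, adrenaline and noradrenaline, and somatostatin. They were taken by symbol, as every gene named Htr, Drd, Adra, Adrb or Sstr followed by a digit, from the probe sets that the platform annotation assigns to 1 gene. They make up 26 of 19938 genes with such a probe set and comprise 14 serotonin, 5 dopamine, 2 alpha adrenergic and 5 somatostatin receptor genes. Other adrenergic receptor genes were not analysed here. Htr5b and Sstr3 had been chosen by their different response in the 2 genotypes in an earlier look at the same arrays. Their values are therefore a description, with no test in any comparison, and all counts cover the other 24 receptor genes.

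Serotonin, dopamine and noradrenaline reach the hippocampus in axons of brainstem and midbrain neurons, whereas somatostatin is made by local GABAergic interneurons. Except for the serotonin-gated ion channel subunits Htr3a and Htr3b, the receptors act through G proteins. Those coupled to Gi or Go lower cyclic AMP and open potassium channels, those coupled to Gs raise cyclic AMP, and those coupled to Gq release calcium from internal stores. Somatostatin receptors couple to Gi or Go and dampen the firing of principal neurons, and Htr6 and Sstr3 are known for their place in the membrane of the neuronal primary cilium.

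Gene expression in the hippocampus was measured in 12 mice, each on its own Affymetrix Mouse Gene ST array, and the mice formed 4 groups of 3. All mice were adults of 7 to 10 weeks on a C57/Bl6 background, carried a tamoxifen-inducible Cre recombinase driven by the Camk2a promoter and had received tamoxifen. This promoter is active in forebrain glutamatergic neurons, so that interneurons and glia of the mutants are not its target and should keep Srf, the gene of serum response factor. Heterozygous controls (Srf loxp/+; CaMKCreERT2, labelled WT control with no seizure) received Ringer solution. Heterozygous mice with SE had the same genotype and 40 min of status epilepticus (SE), a seizure that does not end by itself, after methyl scopolamine and 335 or 350 mg/kg of the muscarinic agonist pilocarpine. Srf mutant controls (Srf loxp/loxp; CaMKCreERT2, labelled KO control) received Ringer solution. Srf mutants with pilocarpine, labelled as mice with seizure, received the same drugs and had grade 4 seizures but no SE, and their time of harvest was not found in the sources used here. Mice with 1 or more Cre alleles were not told apart, both sexes were used, and mutants with SE were not analysed here.

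The levels are the authors' robust multiarray averages (RMA) on a log2 scale, on which a difference of 1 is a 2-fold change, and the median of all probe sets lay between 6.78 and 6.86 on the 12 arrays. Srf had a level of 9.53 to 9.60 in heterozygous controls, 10.17 to 10.27 in heterozygous mice with SE, 8.80 to 8.96 in mutant controls and 8.83 to 8.90 in mutants with pilocarpine. All mutants thus lay below all heterozygous mice. Fos, an immediate early gene of neuronal activity, was higher with SE by a log2 difference of 5.34 (standard error 0.12) in heterozygous mice and with pilocarpine by 2.72 (standard error 0.12) in the mutants, each with its standard error. Of the marker genes of hippocampal cells, all 7 of dentate granule cells, all 5 of CA1 and all 9 of CA3 and CA2 pyramidal cells exceeded a background guide of 5.89, the 95th percentile of 1205 olfactory and vomeronasal receptor probe sets. Of the 26 receptor genes, 23 exceeded it. Htr1d, Htr2b and Htr3b did not, so their differences are those of dim probe sets.

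Several receptor genes were lower in heterozygous mice after 40 min of SE, whereas in the mutants with pilocarpine 1 receptor gene passed the test. In heterozygous mice, 5 of 24 receptor genes were called lower with SE (Htr1a, Htr6, Drd1, Adra2c and Sstr4) and 2 were called higher (Sstr1 and Sstr2). Calls were made with limma at a Benjamini-Hochberg adjusted p under 0.05 over all 23410 probe sets with a gene. The called shares were 20.8% lower and 8.33% higher, beside 6.93% and 5.08% of all probe sets. These shares are not matched for brightness, since 73.1% of all probe sets exceeded the background guide, against 23 of the 26 receptor genes. With dim probe sets left out, 1692 of 17107 probe sets were called lower and 1209 higher, beside 7 of 21 receptor genes called. The median log2 difference of the 24 was -0.11, against -0.03 over all probe sets, and 17 of the 24 had a negative difference. Here and below, counts of signs stand without the share over all probe sets, which was not computed. In the mutants, Sstr2 was called higher and no receptor gene lower, beside 0.871% of all probe sets called higher and 0.965% lower, and the median difference was 0.046 against -0.004 over all. At an unadjusted p under 0.05, 3 receptor genes (Sstr1, Sstr2 and Adra2c, all higher) of 24 passed there, beside 14.8% of all probe sets, so that this count did not exceed the background. Between the control groups limma called 0 receptor genes, beside 0.0384% of all probe sets higher and 0.0812% lower in mutants, and 3 (Sstr2, Htr1b and Sstr4) had an unadjusted p under 0.05, beside 8.73% of all probe sets.

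The groups were also compared mouse by mouse. With SE, all 3 heterozygous mice lay below all 3 controls for 10 of the 24 receptor genes (41.7%), beside 19.7% of all probe sets, and above them for 4 (16.7%), beside 10.6%. The shares of all probe sets include dim ones, and shares without these were not computed. The 10 were the 5 called lower and Htr1f, Htr3b, Htr5a, Htr7 and Drd5, and the 4 were Sstr1, Sstr2, Htr1d and Htr2a. In the mutants, the mice with pilocarpine lay above their controls for 4 genes (Adra1b, Adra2c, Htr1d and Sstr2), beside 6.97% of all probe sets, and below for 0, beside 11.3%. Fewer cells of a type and less RNA per cell cannot be told apart in these whole-tissue samples.

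**Figure D1:**
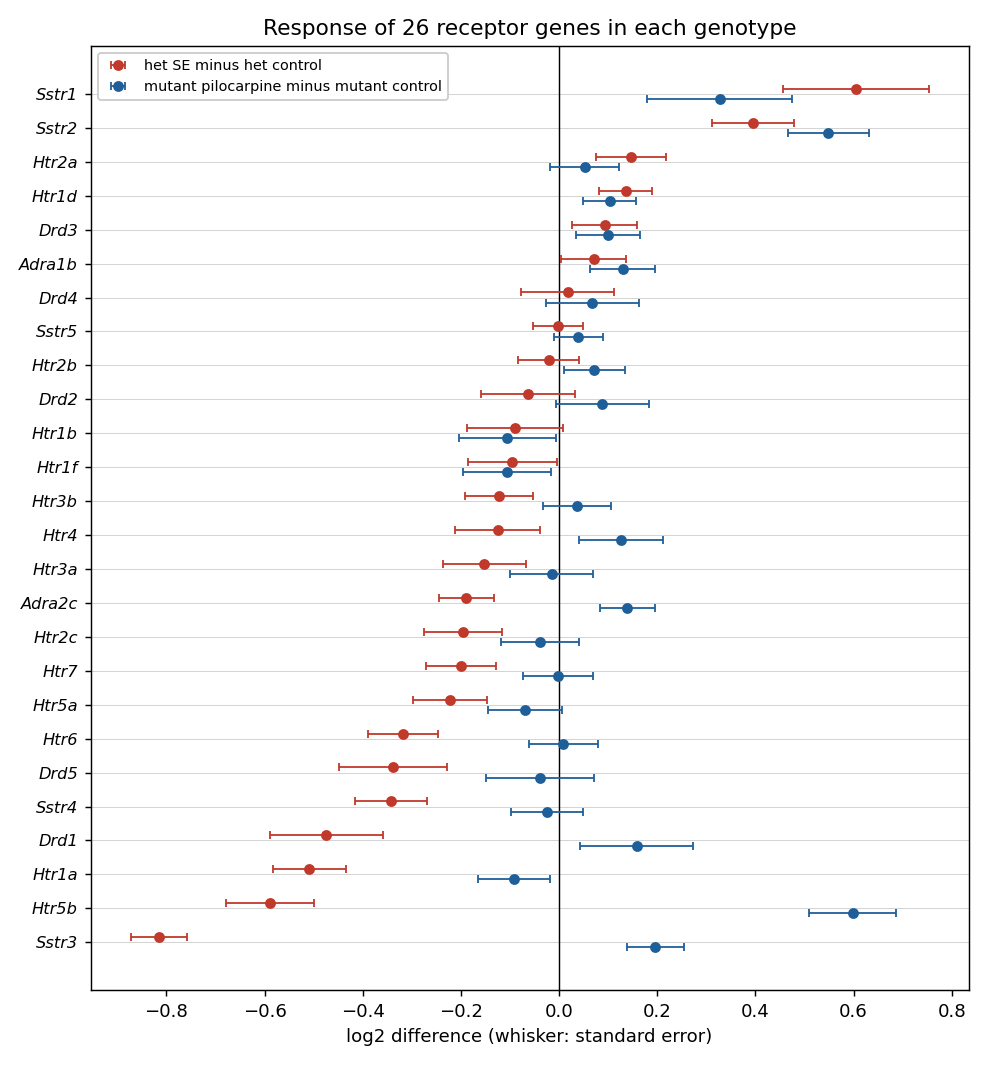
Log2 difference of each of the 26 receptor genes from the controls of the same genotype, with SE in heterozygous mice (red) and with pilocarpine in Srf mutants (blue); points are differences of means of 3 mice and whiskers are standard errors. The red points reach from -0.815 for Sstr3 to 0.605 for Sstr1, and the blue point of Htr5b lies at 0.60 where its red point lies at -0.59.

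Several of the genes with the largest differences have an upstream sequence in the promoter table. Those of Sstr2, Sstr3 and Htr1a were picked to be shown. Sstr2 was the receptor gene called higher in both genotypes. Sstr3 had the most negative difference with SE, and Htr1a the largest fall among the genes tested. Those of Drd1, which differed by -0.47 with SE, hold none of the motifs searched and are not shown. Each line holds the 250 bases before the transcription start, from RefSeq on GRCm38.p6 and read 5′ to 3′ on the gene's strand, for Sstr2 at chr11:113619077-113619326 (plus strand), for 1 of the 2 starts of Sstr3 at chr15:78544346-78544595 (minus strand) and for Htr1a at chr13:105443443-105443692 (plus strand). Capitals mark matches to sites of activity-regulated transcription factors.
Sstr2: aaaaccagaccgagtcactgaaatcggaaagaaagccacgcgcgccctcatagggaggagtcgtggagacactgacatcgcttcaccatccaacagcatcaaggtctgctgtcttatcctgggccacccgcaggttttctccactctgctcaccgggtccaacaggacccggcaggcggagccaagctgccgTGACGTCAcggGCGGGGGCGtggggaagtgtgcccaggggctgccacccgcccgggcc
Sstr3: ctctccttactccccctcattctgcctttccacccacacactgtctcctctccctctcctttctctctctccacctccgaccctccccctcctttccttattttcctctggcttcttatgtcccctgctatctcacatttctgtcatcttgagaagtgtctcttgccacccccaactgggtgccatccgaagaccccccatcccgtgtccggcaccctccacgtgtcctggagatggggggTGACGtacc
Htr1a: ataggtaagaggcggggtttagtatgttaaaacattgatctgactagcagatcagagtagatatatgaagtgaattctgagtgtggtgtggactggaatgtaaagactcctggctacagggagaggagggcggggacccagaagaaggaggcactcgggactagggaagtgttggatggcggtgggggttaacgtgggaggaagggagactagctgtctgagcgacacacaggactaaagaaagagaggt
The Sstr2 sequence holds the cyclic AMP response element (CRE) TGACGTCA, 58 to 51 bases before the start, and a match to the EGR site GCGNGGGCG, 47 to 39 bases before it. The Sstr3 sequence holds the shorter CRE motif TGACG, 9 to 5 bases before the start, and the Htr1a sequence holds none of the motifs searched. The sequence before the other start of Sstr3, which is not shown, holds none of them either.

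The search covered both strands of 26 promoter windows of 21 receptor genes and 32851 windows of all genes in the table. CRE was found in 1.55% of all windows and, among the receptor genes, in Sstr2. The shorter motif TGACG, which the full CRE contains on each strand, was found in 17.8% of all windows. Of the 26 receptor windows, 3 held it, those of Sstr2, Htr7 and 1 start of Sstr3. The EGR site was found in 4.7% of all windows and in Sstr2 and Htr7, and the AP-1 site TGANTCA in 6.75% and in Adra1b, Htr2b and Htr2c. The CArG box, the site that SRF binds, was found in 1.47% of all windows and in 0 of the 26. A match is a description of letters and not a bound site.

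Htr1a, the Gi-coupled receptor that carries much of the inhibitory action of serotonin on hippocampal pyramidal cells, had the largest fall of the tested receptor genes. Its levels were 9.37, 9.29 and 9.23 in heterozygous controls and 8.67, 8.90 and 8.78 with SE, and the groups did not overlap. In mutant controls they were 9.07, 9.12 and 9.27, and in mutants with pilocarpine 9.13, 9.10 and 8.95, so that these groups overlapped. The difference with SE was -0.51 (standard error 0.07, limma adjusted p = 0.000603), so that Htr1a fell by 29.7%, and that in the mutants was -0.09 (standard error 0.07, limma adjusted p = 0.626). The response in mutants was 0.42 above that in heterozygous mice (standard error 0.11, limma adjusted p = 0.0501), which was not called.

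The other Gi-coupled serotonin receptor genes did not pass the test in any comparison. Htr1b, a receptor of axon terminals, was 9.46, 9.35 and 9.42 in heterozygous controls and 9.07, 8.85 and 9.34 in mutant controls. These groups did not overlap, as was also the case for Htr3b, Htr7, Sstr2 and the chosen Sstr3. The share of all probe sets with separate control groups was not computed. The genotype difference of Htr1b was -0.33 (standard error 0.10, limma adjusted p = 0.411). Without mutant control 3 it was -0.45 with an adjusted p of 0.0485, and without mutant control 2 it was -0.21 with an adjusted p of 0.49, in a range of 0.0485 to 0.82 over all settings. In SE Htr1b was 9.21, 9.43 and 9.32 and in mutants with pilocarpine 8.99, 8.94 and 9.01, with differences of -0.09 and -0.11 from the controls of each genotype. Htr1f, at 7.33 ± 0.04 (SD, n = 3) in heterozygous controls, differed by -0.095 with SE and by -0.11 in the mutants, and the dim Htr1d by 0.14 and 0.10.

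Htr6, a Gs-coupled serotonin receptor of the cilium, fell with SE. It was 7.84, 7.78 and 7.81 in heterozygous controls and 7.33, 7.68 and 7.47 with SE, and the highest mouse with SE lay below the lowest control. In mutant controls it was 7.81, 7.78 and 7.74 and in mutants with pilocarpine 7.85, 7.76 and 7.74, values that largely coincided. The difference with SE was -0.32 (standard error 0.07, limma adjusted p = 0.0106) and in the mutants 0.01 (standard error 0.07, limma adjusted p = 0.973), and their difference of 0.33 (standard error 0.10) was not called (limma adjusted p = 0.111). Htr7, also coupled to Gs, had a difference of -0.20 with SE (standard error 0.07, limma adjusted p = 0.0944) and of -0.002 in the mutants. For Htr4, the third Gs-coupled serotonin receptor, the differences were -0.125 and 0.126, and neither was called.

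Htr5b was lower with SE in heterozygous mice and higher with pilocarpine in mutants, which is the measure on which it was chosen. In rodents Htr5b encodes a serotonin receptor whose signalling is poorly known, and in humans the gene has lost its coding function. Its levels were 8.68, 8.62 and 8.85 in heterozygous controls and 8.16, 8.19 and 8.05 with SE, all below the controls. In the mutants they were 8.67, 8.99 and 8.63 without and 9.33, 9.32 and 9.43 with pilocarpine, all above the controls and above every heterozygous mouse. The log2 differences were -0.59 (standard error 0.09) with SE and 0.60 (standard error 0.09) in the mutants, and the control groups differed by 0.05 (standard error 0.09). Its closest relative Htr5a, coupled to Gi, was 8.92 ± 0.10 (SD, n = 3) in heterozygous controls and 8.695 ± 0.14 with SE, a difference of -0.22 that was not called (standard error 0.08, limma adjusted p = 0.0825), and it differed by -0.07 in the mutants.

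**Figure D2:**
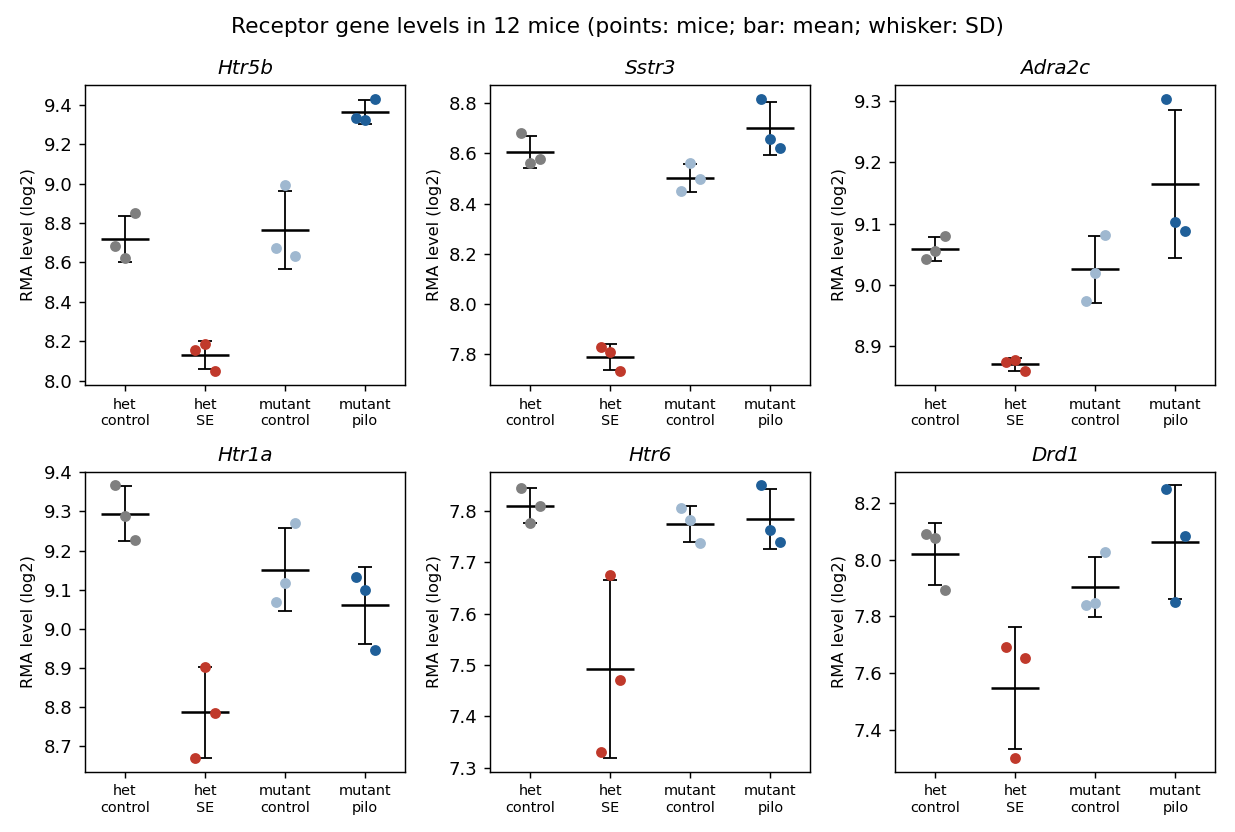
RMA levels (log2) of Htr5b, Sstr3, Adra2c, Htr1a, Htr6 and Drd1 in the 12 mice; points are mice, bars are means of 3 mice, whiskers are SD, and each panel has its own vertical range that does not start at 0. In all 6 panels the 3 heterozygous mice with SE lie below the 3 heterozygous controls, and for Htr5b, Sstr3 and Adra2c the 3 mutants with pilocarpine lie above the 3 mutant controls.

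The Gq-coupled serotonin receptor genes and the channel subunits passed no test. Htr2a, the receptor through which hallucinogens act, was 10.18 ± 0.04 (SD, n = 3) in heterozygous controls and 10.32 ± 0.08 with SE, a difference of 0.15 (standard error 0.07, limma adjusted p = 0.236). Htr2c went from 9.95 ± 0.08 (SD, n = 3) to 9.75 ± 0.12, a difference of -0.20 (standard error 0.08, limma adjusted p = 0.155). Their differences in the mutants were 0.05 and -0.04. Htr3a, the channel subunit found in a class of interneurons, was 9.27 ± 0.16 in heterozygous controls and 9.12 ± 0.16 with SE (SD, n = 3), a difference of -0.15 (standard error 0.09, limma adjusted p = 0.322), and differed by -0.015 in the mutants. The dim Htr2b and Htr3b differed by -0.02 and -0.12 with SE and by 0.07 and 0.04 in the mutants. Over the 13 serotonin receptor genes tested, 11 had a negative difference with SE and 7 in the mutants, with medians of -0.125 and -0.002.

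Dopamine receptors of the D1 class, Drd1 and Drd5, couple to Gs and had the largest differences of their family with SE. Drd1 was 8.09, 8.08 and 7.89 in heterozygous controls and 7.69, 7.30 and 7.65 with SE, with no overlap. In mutant controls it was 7.84, 7.85 and 8.03, and in mutants with pilocarpine 8.25, 7.85 and 8.08, so that 1 treated mouse lay among the controls. The difference with SE was -0.47 (standard error 0.12, limma adjusted p = 0.0167), so that Drd1 fell by 28.0%, and in the mutants it was 0.16 (standard error 0.12, limma adjusted p = 0.579). The call with SE was lost without heterozygous control 1 (-0.44, adjusted p = 0.064), control 2 (-0.445, adjusted p = 0.0633) or heterozygous SE mouse 2 (-0.35, adjusted p = 0.0594). The difference between the responses was 0.63 (standard error 0.16, limma adjusted p = 0.0549) and was not called. Drd5 differed by -0.34 with SE (standard error 0.11, limma adjusted p = 0.0674) and by -0.04 in the mutants. The genes of the Gi-coupled D2 class had differences with SE of -0.06 for Drd2, 0.09 for Drd3 and 0.02 for Drd4, and in the mutants of 0.09, 0.10 and 0.07, none of which was called.

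Adra2c, a Gi-coupled receptor that restrains transmitter release, was the tested receptor gene called for its difference between the responses of the genotypes; Drd1 and Htr1a were called for it in 7 of 20 other settings each and Htr6 in 2. Its levels were 9.042, 9.055 and 9.080 in heterozygous controls and 8.874, 8.878 and 8.859 with SE, all below the controls. In the mutants they were 8.974, 9.020 and 9.082 without and 9.304, 9.103 and 9.088 with pilocarpine, all above the controls though by little in 2 of the 3 mice. It differed by -0.19 with SE (standard error 0.06, limma adjusted p = 0.0462) and by 0.14 in the mutants (standard error 0.06, limma adjusted p = 0.263), where it was 0.07 without mutant 1 with pilocarpine. The responses differed by 0.33 (standard error 0.08, limma adjusted p = 0.0406), beside 1.47% of all probe sets called in this direction and 2.12% in the other. Both calls lie near the threshold: that of the SE response was lost under 14 of 21 other settings of the fit and that of the difference under 13 of 20, among them median centring of the arrays (adjusted p = 0.109 and 0.0715). Over all settings the adjusted p reached from 0.0117 to 0.137 for the SE response and from 0.0191 to 0.104 for the difference. Adra1b, which couples to Gq, differed by 0.07 with SE and by 0.13 in the mutants, and neither was called.

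The somatostatin receptor genes moved both ways within 1 family. Sstr2, the main target of somatostatin analogue drugs, was 9.25, 9.05 and 9.07 in heterozygous controls and 9.42, 9.46 and 9.67 with SE, a rise without overlap. It was 9.34, 9.46 and 9.56 in mutant controls and 10.11, 9.98 and 9.92 in mutants with pilocarpine, and the latter lay above all other mice. The difference was 0.395 with SE (standard error 0.08, limma adjusted p = 0.00733) and 0.55 in the mutants (standard error 0.08, limma adjusted p = 0.00572). The responses differed by 0.15, with a 95% interval from -0.10 to 0.41 and an adjusted p of 0.6. Mutant controls lay above heterozygous controls in 3 of 3 mice, and this difference of 0.33 (standard error 0.08) was not called (limma adjusted p = 0.332). Both rises of Sstr2 were called in each of 21 other settings of the fit.

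Sstr1 was 9.09, 9.11 and 9.04 in heterozygous controls and 9.75, 9.41 and 9.89 with SE, a rise by 0.605 without overlap (standard error 0.15, limma adjusted p = 0.0173). In mutant controls it was 8.92, 8.41 and 9.08 and with pilocarpine 9.15, 9.17 and 9.06, which overlapped and differed by 0.33 (standard error 0.15, limma adjusted p = 0.326). Mutant control 2 was the lowest of the 12 mice, and without it the difference in the mutants was 0.13 and that between the control groups -0.08. The call with SE was lost without heterozygous control 3 (0.59, adjusted p = 0.0607), SE mouse 1 (0.57, adjusted p = 0.0568) or SE mouse 3 (0.50, adjusted p = 0.082). The control groups differed by -0.28 (standard error 0.15, limma adjusted p = 0.632) and the responses by -0.28 (standard error 0.21, limma adjusted p = 0.589), and neither was called.

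Sstr4, the somatostatin receptor known from CA1 pyramidal dendrites, was 11.75, 11.84 and 11.885 in heterozygous controls and fell to 11.36, 11.64 and 11.46 with SE, all below the controls. It was 11.53, 11.76 and 11.67 in mutant controls and 11.60, 11.64 and 11.65 in mutants with pilocarpine, which lay within the range of their controls. The difference with SE was -0.34 (standard error 0.07, limma adjusted p = 0.00797), and the mutants differed by -0.02 (standard error 0.07, limma adjusted p = 0.926). The responses differed by 0.32 (standard error 0.10, limma adjusted p = 0.133), and mutant controls differed from heterozygous controls by -0.17 (standard error 0.07, limma adjusted p = 0.545). Neither was called. Sstr5, just above the background guide, differed by -0.002 with SE and by 0.04 in the mutants.

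Sstr3, the receptor of the neuronal cilium, had the most negative difference with SE of all 26 genes and was chosen on its different response in the mutants. Its levels were 8.68, 8.56 and 8.58 in heterozygous controls and 7.83, 7.81 and 7.73 with SE, so that all treated mice lay far below the controls. They were 8.45, 8.56 and 8.50 in mutant controls and 8.82, 8.66 and 8.62 with pilocarpine, all above. The log2 differences were -0.815 (standard error 0.06) with SE, where the level was 0.568 times that of controls, and 0.20 (standard error 0.06) in the mutants. Of 9 measured genes of the neuronal cilium, which transports such receptors, limma called 0 in any comparison, 1 had an unadjusted p under 0.05 with SE, and the median of their differences with SE was -0.003.

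**Figure D3:**
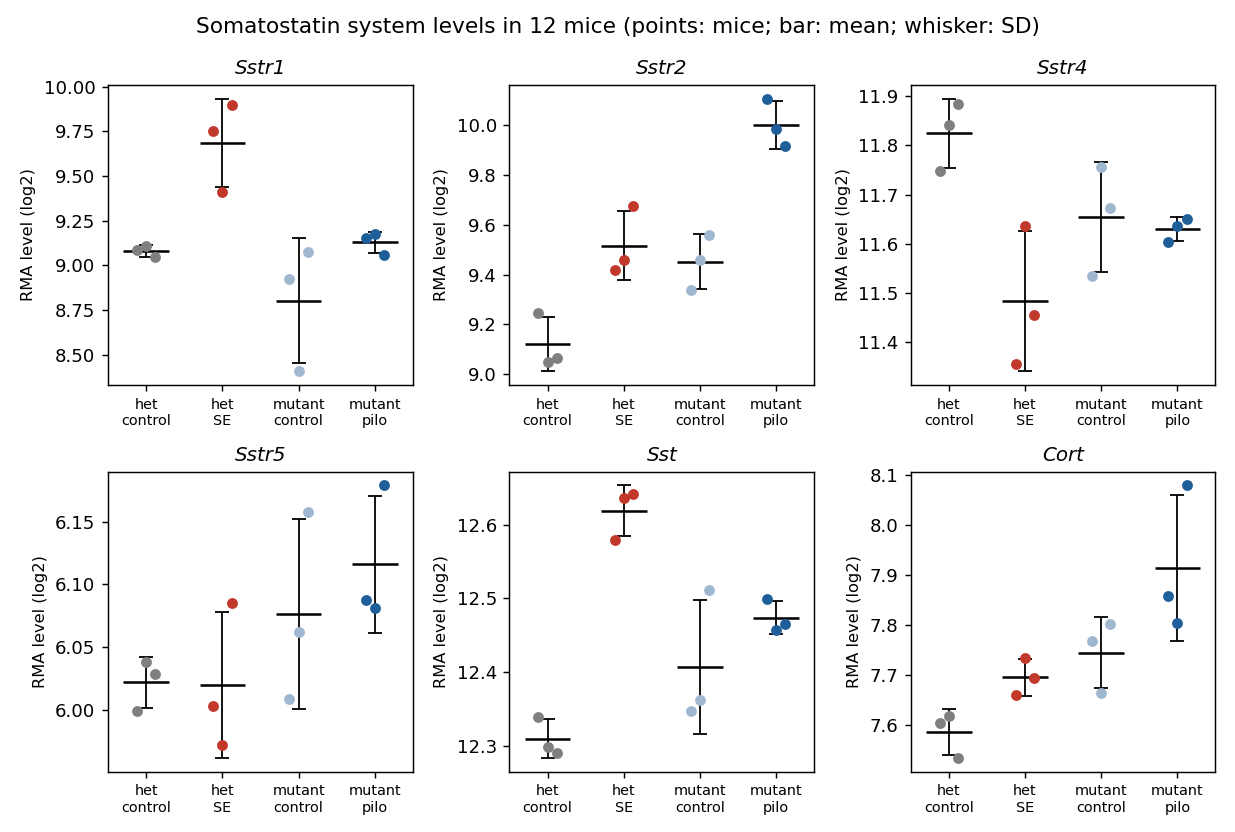
RMA levels (log2) of Sstr1, Sstr2, Sstr4 and Sstr5 and of the ligand genes Sst and Cort in the 12 mice; points are mice, bars are means of 3 mice, whiskers are SD, and the vertical ranges differ and do not start at 0. Sstr1, Sstr2 and Sst are higher and Sstr4 is lower in all 3 heterozygous mice with SE than in their controls, and in the mutants Sstr2 alone of these 6 genes was called.

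Sst, the gene of somatostatin, rose with SE as well. It was 12.34, 12.30 and 12.29 in heterozygous controls and 12.58, 12.64 and 12.64 with SE, a difference of 0.31 (standard error 0.05, limma adjusted p = 0.00101) with no overlap. In the mutants it was 12.35, 12.36 and 12.51 without and 12.50, 12.46 and 12.465 with pilocarpine, a difference of 0.07 (standard error 0.05, limma adjusted p = 0.577). The responses differed by -0.24 (standard error 0.07, limma adjusted p = 0.0799), which was not called. Cort, the gene of the related peptide cortistatin, differed by 0.11 with SE (limma adjusted p = 0.361) and by 0.17 in the mutants (limma adjusted p = 0.251).

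Across the 24 tested receptor genes, 9 were lower and 7 higher in both genotypes, 8 were lower with SE and higher in the mutants, and 0 showed the opposite. Such counts over all probe sets were not made. The differences with SE and in the mutants, which share no array, correlated at r = 0.68 over the 24 genes and at 0.47 over all 23410 probe sets. These genes were measured on the same arrays and are not independent. Sstr1 (0.605 with SE, 0.327 in the mutants) and Sstr2 (0.395 and 0.549) had the largest rises in both, and r without them was not computed. In the difference between the responses, 19 of 24 values were positive, with a median of 0.15 against 0.02 over all probe sets, and 1 gene was called. The standard errors of that difference ranged from 0.07 to 0.21, against 0.05 to 0.15 for the other comparisons. Since the heterozygous mice had SE and the mutants did not, genotype and SE cannot be told apart in it.

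**Figure D4:**
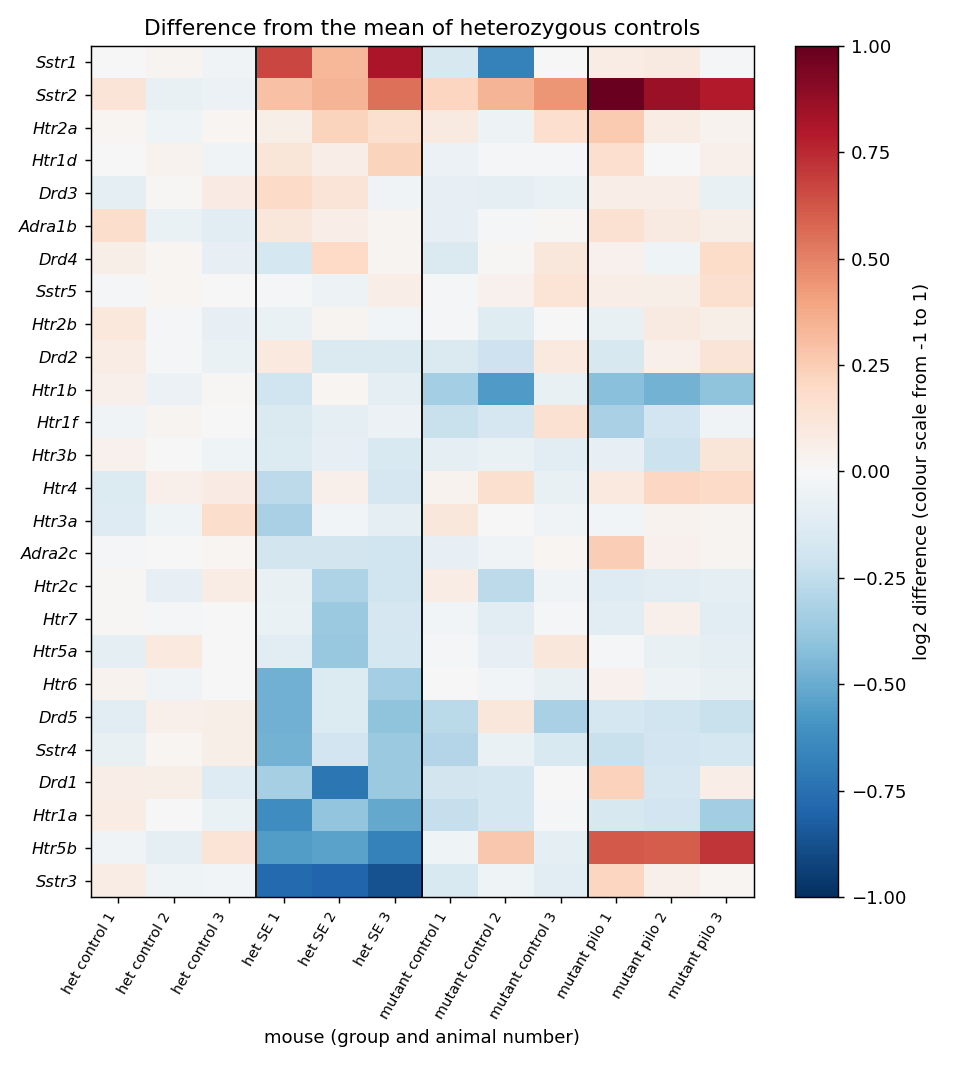
Log2 difference of each of the 26 receptor genes (rows, ordered by the difference with SE) from the mean of the heterozygous controls in each of the 12 mice (columns; black lines separate the 4 groups); the colour scale runs from -1 (blue) to 1 (red). From Htr6 down, every row is blue in the 3 heterozygous mice with SE. Sstr2 is reddest in the mutants with pilocarpine, and Htr5b is blue in the former and red in the latter.

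Some genes that act before and after the receptors were called. With SE, 5.08% of all probe sets were called higher, 6.93% were called lower and 23.8% had an unadjusted p under 0.05. In the mutants these shares were 0.871%, 0.965% and 14.8%. Whether the gene lists differed from these shares was not tested. Of 14 measured genes of monoamine synthesis, transport and breakdown, 7 exceeded the background guide. With SE, Gch1, whose enzyme makes the cofactor of monoamine synthesis, was called higher by 0.46 (limma adjusted p = 0.0103) at a level below the guide (5.28 in controls), and Ddc, the decarboxylase that makes dopamine and serotonin, was called lower (-0.29, limma adjusted p = 0.0275). Of 13 G protein subunit genes, limma called 0 in any comparison, 3 had an unadjusted p under 0.05 with SE, and their median difference with SE was -0.035. Of 19 genes of cyclic AMP synthesis, breakdown and action, the phosphodiesterase genes Pde4d (0.33, limma adjusted p = 0.000744) and Pde4b (0.20, limma adjusted p = 0.0112) were higher with SE and Pde10a was lower (-0.17, limma adjusted p = 0.0219). In the mutants limma called 0 of the 19 (2 at an unadjusted p under 0.05), and the response of Pde4d differed between the genotypes by -0.30 (standard error 0.07, limma adjusted p = 0.034).

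Of 11 genes of receptor kinases, arrestins and receptor partners, 0 were called with SE (1 at an unadjusted p under 0.05) and Grk6, a kinase that phosphorylates active receptors, was lower in mutants with pilocarpine (-0.21, standard error 0.04, limma adjusted p = 0.0319). Of 4 genes of the GIRK potassium channels, which Gi-coupled receptors open, Kcnj3 was lower in these mice (-0.18, standard error 0.04, limma adjusted p = 0.0368). Its response differed between the genotypes by -0.22 (standard error 0.05, limma adjusted p = 0.044), and 0 of the 4 were called or had an unadjusted p under 0.05 with SE. The median differences with SE were 0.008 over the kinase and arrestin list and -0.004 over the channels.

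Marker genes of neighbouring regions can share a sample with the hippocampus, and their values are given since some of the receptors are known from there. Of 7 markers of neocortex and subiculum, 3 were called higher with SE, beside 5.08% of all probe sets. These were Fezf2 by 0.70, Nts by 0.87 and Rorb by 0.19 (limma adjusted p = 6.96e-05, 9.31e-05 and 0.0483). Fn1 was higher (0.09) and Tbr1 (-0.14), Cux2 (-0.105) and Rspo1 (-0.096) were lower, none of them called, and the median of the list was 0.089. The mean of this list was 8.98 to 9.06 in heterozygous controls and 9.13 to 9.28 with SE, and 8.89 to 9.10 in mutant controls and 8.96 to 9.02 with pilocarpine. Of 6 striatal markers, relevant to Drd1 and Drd2, Tac1 was called higher with SE (0.60, limma adjusted p = 0.0168) and Pde10a lower. Penk (0.31) and Rgs9 (0.02) were higher and Gpr6 (-0.20) and Ppp1r1b (-0.09) lower, none of them called. The list median was -0.035, and the list mean was 8.84 to 8.98 in heterozygous controls and 8.97 to 9.03 with SE. The part of these regions in the receptor values was not tested.

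Htr5b is known from the medial habenula and Htr2c from the choroid plexus, the tissue that makes cerebrospinal fluid. Of 8 habenular markers, 3 exceeded the guide, and 0 were called or had an unadjusted p under 0.05 in any comparison. Gpr151, the defining marker, lay at 5.08 to 5.42 on all arrays, below the guide, and the list mean was 6.38 to 6.485 in heterozygous controls, 6.385 to 6.43 with SE, 6.31 to 6.38 in mutant controls and 6.36 to 6.48 with pilocarpine. Of 9 choroid plexus markers, Ttr ranged from 7.96 to 10.36 among heterozygous controls and from 7.54 to 9.27 among mutant controls, with no call, and Sostdc1 was called higher in mutants with pilocarpine by 0.40 (limma adjusted p = 0.0409). The list mean was 6.565 to 6.87 in heterozygous controls, 6.60 to 6.65 with SE, 6.45 to 6.75 in mutant controls and 6.61 to 6.69 with pilocarpine. Markers of dentate granule cells, CA1, CA3 and CA2 pyramidal cells, thalamus, astrocytes and oligodendrocytes had 0 limma calls in each comparison; at an unadjusted p under 0.05 with SE, 3 of 7 passed for dentate granule cells, 2 of 9 for CA3 and CA2 and 0 for the others, beside 23.8% of all probe sets. In mutants with pilocarpine, 4 of 5 oligodendrocyte markers had an unadjusted p under 0.05, with a median difference of -0.29 over the 5, and their list mean was 11.32 to 11.39 in mutant controls and 10.79 to 11.30 with pilocarpine. These groups did not overlap, and the part of this in the receptor values of the mutants was not tested. Of 10 interneuron markers, Reln was called higher with SE by 0.49 (limma adjusted p = 0.00611), and the list mean was 10.33 to 10.38 in heterozygous controls and 10.35 to 10.45 with SE. In the mutants this mean was 10.45 to 10.50 without and 10.53 to 10.58 with pilocarpine, with 0 calls in both comparisons of the mutants and, at an unadjusted p under 0.05, 5 of 10 against heterozygous controls and 6 of 10 with pilocarpine, beside 8.73% and 14.8% of all probe sets. With pilocarpine, Pvalb was lower (-0.27, standard error 0.07), as were Cck (-0.09) and Slc32a1 (-0.04), and the other interneuron markers were higher. The part of these differences in the values of the somatostatin genes was not tested.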

How the data were processed

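Total hippocampal RNA of 12 mice was hybridised to 1 Affymetrix Mouse Gene ST array each. The authors processed the scans with Expression Console and deposited RMA values on a log2 scale, which are already background corrected, quantile normalized and summarised over probes. The annotation names genes for 23410 of 35556 probe sets, and each receptor gene had 1 probe set. These 23410 were fitted in limma 3.58.1 (R 4.3.3) with 4 group means and Benjamini-Hochberg adjustment, and tables were read with pandas 2.3.3 in Python 3.11.15. Replicates are separate mice, and 0 arrays were identical (r of 0.9963 to 0.9978 within groups). The number of arrays limits the precision. The fit was tested on simulated data with log2 changes of 0.5 and 1. Of changes of 0.5, it recovered 88% with SE, 78% in the mutants, 93% between controls and 66% for the difference between the responses. Smaller changes were not simulated, so a missing call does not show that a gene was unchanged. All receptor genes were named, with values per mouse for Htr5b, Sstr3, called genes and the 4 largest differences per comparison. Of pathway lists up to 4 called genes were named. Of marker lists, counts and list means were given, and the marker genes named were chosen after their values were seen. The receptor genes and all lists were chosen with earlier results of these data known. Other settings changed the prior variance, the arrays or probe sets entering the fit, the normalization, array weights, sex by Xist, a block by animal number and the call rule, or left out each array in turn.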

Additional observations from a re-analysis of the deposited data

Results flagged for a closer look

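Among the 24 tested receptor genes, Adra2c alone had every heterozygous mouse with SE below its controls and every mutant with pilocarpine above its own. Htr5b and Sstr3 had this pattern too, but they were chosen on their different response and are not counted. The share of all probe sets with this pattern was not computed. The response of the mutants minus that of heterozygous mice was 0.328 (log2) for Adra2c, which limma called with an adjusted p of 0.0406. This call was lost under 13 of 20 other settings, among them median centring (adjusted p = 0.0715) and the replicate block by animal number (0.0771), with a range of 0.0191 to 0.104. It was 1.187 for Htr5b and 1.011 for Sstr3, which were chosen on this difference, so that it was not tested for them. In all 3 genes the mutants had no SE, and the part of genotype and that of SE cannot be told apart.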

How the results depend on the processing

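The comparisons rest on 3 arrays a group, the background correction within RMA cannot be varied from the deposited values, and averaging probe sets of a gene changes nothing, since each receptor gene has 1. With SE, 7 of 24 receptor genes were called, 6 to 8 under other settings at an adjusted p under 0.05 and 5 to 7 when single arrays were left out. Htr1a, Htr6, Sstr2 and Sstr4 kept their calls with SE under all 21 settings with a limit of 0.05, and Sstr2 its call in the mutants. With the limits of the methods, an adjusted p under 0.001 and at least a 2-fold change, 0 were called with SE, 0 in the mutants and 0 for the difference between the responses, against 7, 1 and 1. The count for that difference was 3 with an intensity trend in the prior variance, with dim probe sets left out, with quantile normalization repeated and with array weights, and 0 with median centring, with all probe sets fitted and with Xist as a covariate; it was 0 to 3 when single arrays were left out. Fitting only the groups compared could not be done for it. The genes gained were Drd1 (7 of 20 settings), Htr1a (7 of 20) and Htr6 (2 of 20), and the causes were not tested. Between controls the count was 0 to 1 when single arrays were left out, the 1 being Htr1b without mutant control 3. The log2 difference between responses was 1.12 to 1.30 for Htr5b and 0.95 to 1.06 for Sstr3 over these settings. No called difference changed sign in the results recomputed; the difference of Htr5b between controls ranged from -0.07 to 0.11. Over all probe sets, calls in the mutants were 204 higher and 226 lower, against 121 and 40 with only the groups compared, and calls between controls 9 and 19, against 1 and 8 with only the groups compared.

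Same-numbered mice of different groups had deviations that correlated at r above 0.1 in 5 of 18 pairs (-0.31 to 0.32), which does not pair the mice over all groups. Between heterozygous mice with SE and mutant controls all 3 lay above 0.1 (0.191, 0.323 and 0.123). Both groups enter the difference between responses, with the same sign. Differently numbered mice reached from -0.442 to 0.393, both between mutant controls and mutants with pilocarpine. With animal number as a replicate block, 7 receptor genes were called with SE, 1 in the mutants, 0 between controls and 1 for the difference between responses, where Drd1 (adjusted p = 0.0444) took the place of Adra2c (0.0771), and Adra2c was not called with SE (0.0783).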

Other observations

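Markers of other cells of the tissue, which belong to no comparison of the receptor genes, showed a few calls with SE. Of 6 microglial markers, Cx3cr1 (-0.19, limma adjusted p = 0.0264) and P2ry12 (-0.23, limma adjusted p = 0.027) were called lower in heterozygous mice with SE. Of 6 endothelial markers Tek was called lower (-0.445, limma adjusted p = 0.0227), and of 6 markers of vascular smooth muscle and pericytes Pdgfrb (-0.48, limma adjusted p = 0.000559). The list means overlapped between heterozygous controls and mice with SE in each case, at 8.679 to 8.783 and 8.645 to 8.681 for microglia, 8.585 to 8.795 and 8.23 to 8.805 for endothelium, and 7.75 to 7.99 and 7.72 to 8.15 for smooth muscle and pericytes. In the mutants with pilocarpine no marker of these 3 lists was called by limma, and 3, 1 and 1 had an unadjusted p under 0.05. These genes were named after their values were seen.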
